A study of Mus musculus with 2 samples.

Results

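The genes described here encode the proteins of the mitochondrial ribosome. They were taken as every gene whose symbol begins with Mrpl or Mrps followed by a digit and that has a transcript annotated as protein coding, which gave 78 of the 55536 annotated genes in the deposited gene tables. They were measured by total RNA sequencing of heart tissue from male mice, 8 to 10 months of age, of the 5xFAD/CAST background. 5xFAD is a transgenic line that carries mutant human amyloid precursor protein and presenilin genes under the Thy1 promoter, which acts mainly in neurons, and CAST is an inbred strain derived from wild mice. The data hold 1 group of 2 libraries, numbered as biological replicates and called library 1 and library 2, and no group without the transgenes was analysed here. Each library has a tissue sample of its own in the labels, yet the donor identifier is shared, and differences between libraries may therefore be technical. No contrast between conditions existed and no test was run. Values are TPM, the level of a transcript per length and library total, and means carry the SD over the libraries (n = 2). They come from the deposited gene tables, called the first quantification, unless the second is named, a separate deposited estimate per transcript that was summed per gene.

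Mitochondrial ribosomes translate the few mRNAs that are encoded in mitochondrial DNA, all of which specify subunits of the oxidative phosphorylation complexes. Their ribosomal RNAs come from mitochondrial DNA, whereas every protein is encoded in the nucleus, made in the cytosol and imported. Some of these proteins have counterparts in bacterial ribosomes and others are found only in mitochondria, and heart muscle relies on oxidative phosphorylation for most of its ATP. By the structural nomenclature of the mammalian ribosome, 51 of the 78 genes encode large-subunit proteins and 26 encode small-subunit proteins. Mrps30 and Mrps18a belong to the large subunit despite their symbols. Mrps36 belongs to neither, since its product is a subunit of the alpha-ketoglutarate dehydrogenase complex of the citric acid cycle.

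The tissue label held against its markers, with all 8 cardiomyocyte genes between 293 and 7756 TPM and the liver, kidney and lung genes at or below 0.30 TPM in each library. Other lists were not all near 0. Of the 4 skeletal muscle genes, Ckm had 1118 and 1170 TPM in library 1 and library 2 and Acta1 206 and 183. Myh4 and Mylpf lay between 2.09 and 4.23. Of the 4 brain genes, Mbp had 2.16 and 1.56 TPM, and the others lay at or below 0.26. The rounded expected counts of annotated genes summed to 39668202 in library 1 and 36926511 in library 2, of which the mitochondrial ribosomal protein genes held 79039 and 74976. Endothelial and fibroblast markers were present, with Cdh5 at 38.3 TPM in library 1 and 35.0 in library 2, and Dcn at 119 and 110.0. The 4 adipocyte genes summed to 8.74 TPM in library 1 and 32.2 in library 2, and each was lower in library 1. As in any bulk tissue, a lower level can mean fewer cells of a type or less RNA per cell, and these cannot be told apart.

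Nearly all mitochondrial ribosomal protein genes were expressed, mostly within a narrow range. At least 1 TPM in both libraries was reached by 77 of the 78, against 48.9% of all protein-coding genes, and the exception was Mrpl23. A level of at least 10 TPM in both libraries was reached by 73, of at least 50 by 13 and of at least 100 by 4. The median over the genes was 27.5 TPM in library 1 and 26.9 in library 2 (mean 27.2 ± 0.378). That of the nuclear protein-coding genes detected at 1 TPM was 7.61 ± 0.0566, so the mitochondrial ribosomal median was 3.57 ± 0.0232 times as high. Of the 78 genes, 76 lay above that median. Their summed level was 0.859% ± 0.00418 of that of all nuclear protein-coding genes.

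**Figure D1:**
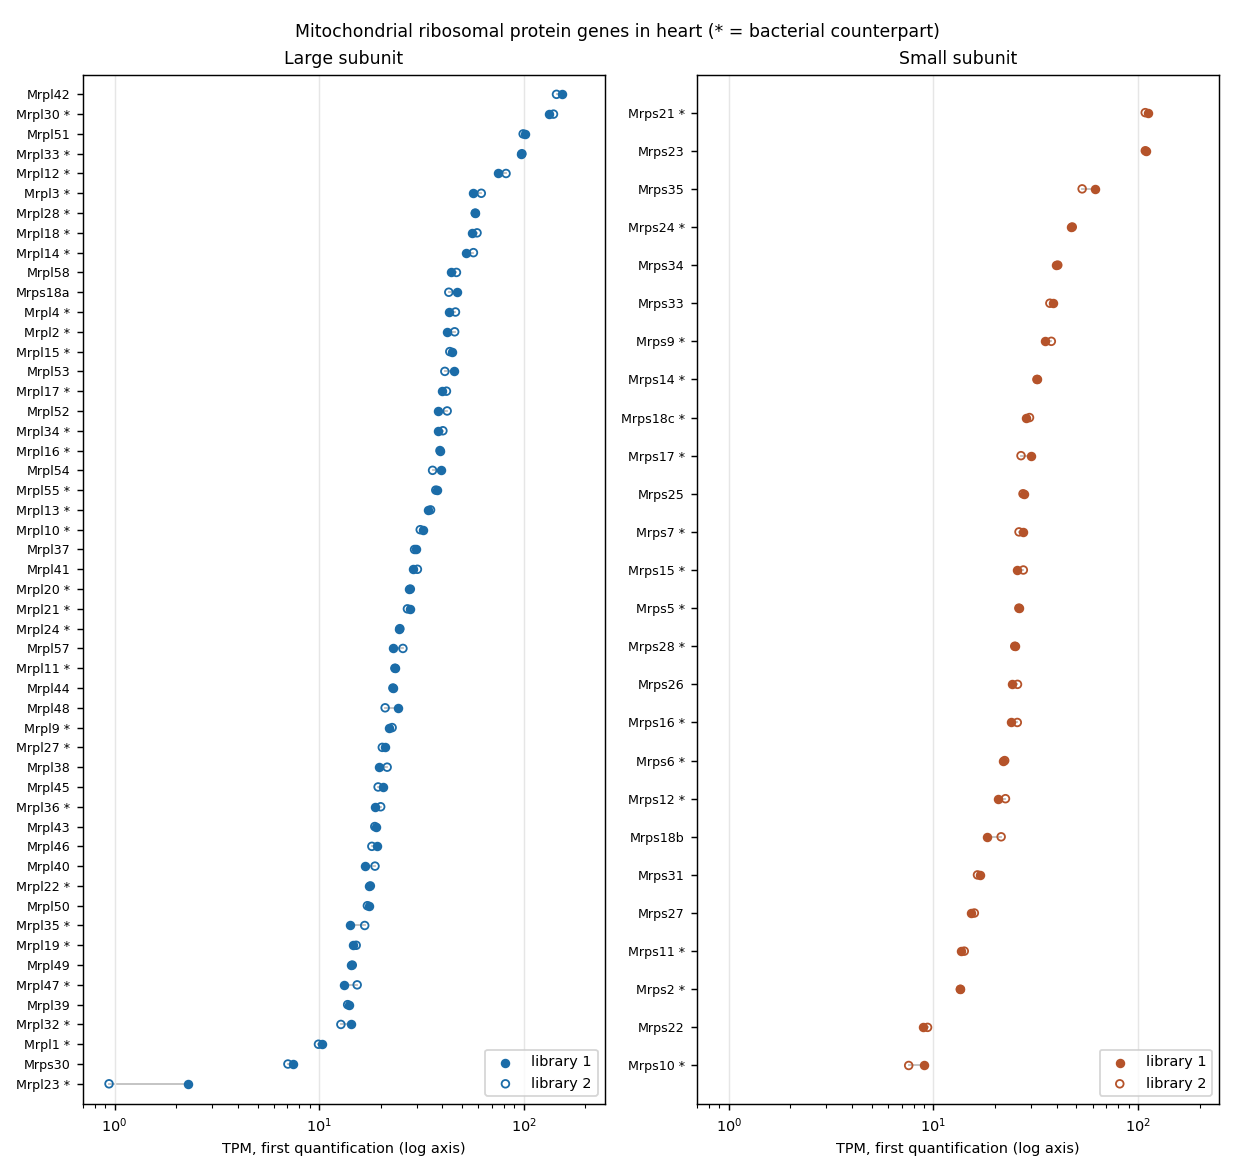
TPM of each large-subunit (left) and small-subunit (right) gene on a log axis, with library 1 as filled and library 2 as open circles and a grey line between them; asterisks mark genes with a bacterial counterpart, and Mrps36 is not drawn. Levels run continuously down to about 7 TPM, and Mrpl23, at 2.29 and 0.94 TPM, stands below all others.

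Large-subunit genes spanned the wider range. Mrpl42, a large-subunit protein found only in mitochondria, had the highest level, with 154 TPM in library 1 and 145 in library 2 from 2853 and 2510 expected counts. Mrpl30, which has a bacterial counterpart, followed with 132 and 139.9 TPM, so its libraries did not overlap those of Mrpl42. In the second quantification Mrpl42 stayed highest, with 159 and 153 TPM, and Mrpl30, with 118 and 123, lay below Mrpl33, with 126 and 125.3. Mrpl51, another mitochondria-specific protein, stood at 102 and 99.4 TPM. At the low end were Mrpl1, a protein with a bacterial counterpart, with 10.3 and 9.93 TPM, and Mrps30, with 7.43 and 7.04. The highest mean was 92.4 times the lowest over all large-subunit genes, and 20.6 times without Mrpl23.

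In the small subunit Mrps21 and Mrps23 led. Mrps21, which has a bacterial counterpart, had 112 and 109 TPM in library 1 and library 2, and the mitochondria-specific Mrps23 had 109.9 and 109. The libraries of these genes overlapped, and the second quantification listed Mrps21 higher, at 123 and 132 TPM against 71.6 and 76.7 for Mrps23. The lowest were Mrps22, a mitochondria-specific protein, with 8.88 and 9.36 TPM, and Mrps10, with a bacterial counterpart, with 9.02 and 7.57, and these overlapped as well. The highest small-subunit mean was 13.3 times the lowest. Median levels of the subunits were close, at 27.96 and 27.93 TPM for the large subunit and 25.8 and 26.2 for the small subunit. Their ratio, large over small, was 1.08 in library 1 and 1.07 in library 2.

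The promoters of the highest pair in each subunit are shown because these genes lead the set. They come from RefSeq on build GRCm38.p6, which holds a promoter of 300 bases for 69 of the 78 genes, from 250 bases before to 50 after the start. Capitals mark the letters AAGATGGCG, known for the factor YY1, in Mrpl42, the consensus of nuclear respiratory factor NRF1, with any base at the fifth position, in Mrpl30 and Mrps21, and CCGGAAG or its reverse complement, known for ETS factors, in Mrps21 and Mrps23.
Mrpl42 promoter, chr10:95501900-95502199, minus strand: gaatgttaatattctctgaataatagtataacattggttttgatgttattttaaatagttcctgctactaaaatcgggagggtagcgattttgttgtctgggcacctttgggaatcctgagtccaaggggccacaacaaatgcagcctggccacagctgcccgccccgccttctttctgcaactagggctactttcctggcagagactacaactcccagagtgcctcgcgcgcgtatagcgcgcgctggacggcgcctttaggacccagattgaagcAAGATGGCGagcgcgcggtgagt
Mrpl30 promoter, chr1:37890227-37890526, plus strand: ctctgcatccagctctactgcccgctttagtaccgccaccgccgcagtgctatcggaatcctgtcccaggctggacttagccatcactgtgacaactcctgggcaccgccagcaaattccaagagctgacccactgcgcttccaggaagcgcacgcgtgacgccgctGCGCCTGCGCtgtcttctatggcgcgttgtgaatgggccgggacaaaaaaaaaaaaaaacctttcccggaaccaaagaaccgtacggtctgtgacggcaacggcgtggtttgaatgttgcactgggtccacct
Mrps21 promoter, chr3:95871465-95871764, minus strand: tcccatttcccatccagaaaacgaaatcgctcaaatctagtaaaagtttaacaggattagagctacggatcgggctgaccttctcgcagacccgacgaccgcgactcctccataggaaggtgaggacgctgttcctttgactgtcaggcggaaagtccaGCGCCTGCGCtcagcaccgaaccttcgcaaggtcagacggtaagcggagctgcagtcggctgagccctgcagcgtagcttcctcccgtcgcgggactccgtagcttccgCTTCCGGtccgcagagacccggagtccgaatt
Mrps23 promoter, chr11:88204138-88204437, plus strand: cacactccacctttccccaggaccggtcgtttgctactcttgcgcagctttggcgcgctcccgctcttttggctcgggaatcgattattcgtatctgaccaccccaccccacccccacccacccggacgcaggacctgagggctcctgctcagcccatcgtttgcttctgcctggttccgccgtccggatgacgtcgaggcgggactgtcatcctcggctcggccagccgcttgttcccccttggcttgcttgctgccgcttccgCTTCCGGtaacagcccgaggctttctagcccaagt

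Matches to these letters were searched on both strands of the promoters of the 69 genes. Shares are of genes, also where promoters are named, and a gene with several promoters counted once, with a match in any of them. CCGGAAG was found in 26 (37.7%), against 21.02% of the 8641 protein-coding genes with a promoter and a mean of at least 1 TPM. Over all 27025 genes with a promoter the share was 9.93%. The NRF1 consensus was found in 13 (18.8%), against 12.1% of the expressed and 5.19% of all promoters, and AAGATGGCG in 8 (11.6%), against 3.84% and 1.64%. Of the cytosolic ribosomal protein promoters, 41.1% held CCGGAAG, a larger share than in this set. The NRF1 consensus was in 8.93% of them and AAGATGGCG in 5.36%. At least 1 of the 3 occurred in 41 (59.4%), against 32.7% of the expressed, 15.1% of all and 53.6% of 56 cytosolic ribosomal protein promoters. By contrast GGGCGG, known for SP factors, occurred in 49.3%, against 70.6% of the expressed and 38.2% of all promoters. CCAAT occurred in 39.1%, against 42.9% and 41.1%. TATAAA occurred in 7.25%, against 8.67% and 15.7%. Genes with CCGGAAG had a median of 33.4 TPM and those without it 24.7. For the NRF1 consensus these medians were 24.9 and 26.6, and for AAGATGGCG 24.5 and 26.5. The motifs were not tested as sites, and a promoter can hold several of them.

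Genes with a bacterial counterpart had the higher median in the large subunit. In the small subunit the order depended on the quantification. The 30 large-subunit genes with a bacterial counterpart had a median of 33.0 TPM in library 1 and 33.1 in library 2, against 23.1 and 22.95 for the 21 mitochondria-specific genes. That ratio was 1.44 ± 0.00969, and 1.40 in the second quantification. In the small subunit the medians were 25.8 and 26.2 TPM for the 16 genes with a counterpart, and 25.9 and 26.6 for the 10 without, a ratio of 0.992 ± 0.00927. In the second quantification they were 28.7 and 24.4 TPM, a ratio of 1.17. The spread here is that of the libraries, not of the genes, whose levels overlapped widely between these classes in both subunits.

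By position in the ribosome, the stalk genes, whose products bring translation factors to the large subunit, differed among themselves. Mrpl12, the flexible stalk protein, had 74.6 and 82.0 TPM in library 1 and library 2. Mrpl10, its anchor, had 32.0 and 31.2, and Mrpl11 at the stalk base had 23.6 and 23.5. The stalk of bacterial and mitochondrial ribosomes holds several copies of the protein that Mrpl12 encodes. In these libraries the Mrpl12 mean was 3.33 times the Mrpl11 mean. Whether RNA level relates to the number of protein copies in the ribosome was not tested.

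The central protuberance is the part of the large subunit that faces the head of the small subunit. The 7 genes listed for it here, which need not be all of them, ran from Mrpl18, with 55.8 and 59.2 TPM, down to Mrps30. The other 5 listed genes (Mrpl27, Mrpl38, Mrpl40, Mrpl46 and Mrpl48) lay between 16.8 and 24.2 TPM in every library. At the exit site, where nascent proteins leave the large subunit toward the inner membrane, Mrpl17 was highest with 39.8 and 41.9 TPM in the first quantification. Mrpl45, which anchors the ribosome to the membrane, had 20.6 and 19.4, and Mrpl23, which lines the rim of the exit tunnel, was lowest. In the second quantification Mrpl23 was instead the highest of these genes, with 41.7 and 43.9 TPM against 32.8 and 35.7 for Mrpl17. Among the 5 genes at the decoding centre and tRNA path of the small subunit, Mrps9 was highest with 35.2 and 37.7 TPM and Mrps11 lowest with 13.6 and 14.2. Mrps9 and Mrps7 overlapped in the second quantification.

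The 3 Mrps18 paralogs were all expressed. Mrps18a, a large-subunit protein, had 47.4 TPM in library 1 and 43.1 in library 2. Mrps18c, the small-subunit paralog with a bacterial counterpart, had 28.3 and 29.5, and Mrps18b, also of the small subunit, had 18.4 and 21.4. The libraries of these paralogs did not overlap, so their order was the same in both. It was the same in the second quantification, with 46.2 and 45.1 TPM for Mrps18a, 34.6 and 36.0 for Mrps18c, and 20.3 and 21.9 for Mrps18b. Outside the ribosome, Mrps36 stood at 72.2 and 68.5 TPM, above all but 7 of the set.

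Other genes of mitochondrial translation were detected throughout, at levels that differed by role. All 5 ribosome subunits that carry other names reached 1 TPM in both libraries, with a median of 40.0 TPM in library 1 and 36.2 in library 2. Among them Ptcd3 had 50.02 and 47.15 TPM and Dap3 47.3 and 42.6, which overlapped, and the second quantification listed Dap3 higher, at 63.1 and 61.3 against 44.6 and 43.4. Gadd45gip1 was lowest with 11.1 and 10.8. The 15 translation factors, all detected, had a median of 19.7 ± 0.368 TPM. They ran from the elongation factor gene Tufm with 104 and 96.2 down to Mtfmt, the initiator tRNA formyltransferase, with 2.50 and 2.38. Mtfmt overlapped the release factor gene Mtrf1l, with 2.84 and 2.22, and lay just below Mtrf1, another release factor gene, with 2.68 and 2.51. The 23 assembly factors, also all detected, had a median of 8.82 ± 0.0707, from the helicase gene Dhx30 with 18.2 and 20.2 down to Ddx28, another helicase, with 3.49 and 3.57. Neither end is resolved, since Rbfa, with 20.25 and 16.4, overlapped Dhx30 and stood above it in the second quantification, and Tfb1m, with 3.32 and 4.13, overlapped Ddx28. The assembly factor gene with the highest mean stayed below the median ribosomal protein gene.

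Cytosolic ribosomal proteins, which build the ribosomes that translate all nuclear mRNAs, were far more abundant. The mitochondrial median divided by the median of the 76 cytosolic ribosomal protein genes was 0.171 in library 1 and 0.167 in library 2. The cytosolic genes had a median of 161 ± 0.364 TPM and held 3.81% ± 0.0348 of nuclear protein-coding TPM. The spread among genes was alike, with an SD of 0.97 on the log2 scale for the mitochondrial set (0.89 without Mrpl23) and 1.02 for the cytosolic set. The ranges overlapped, since Mrpl42 lay above 96.1 TPM, the lower quartile of the cytosolic genes, whose lowest, Rpl5, averaged 10.1 TPM.

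**Figure D2:**
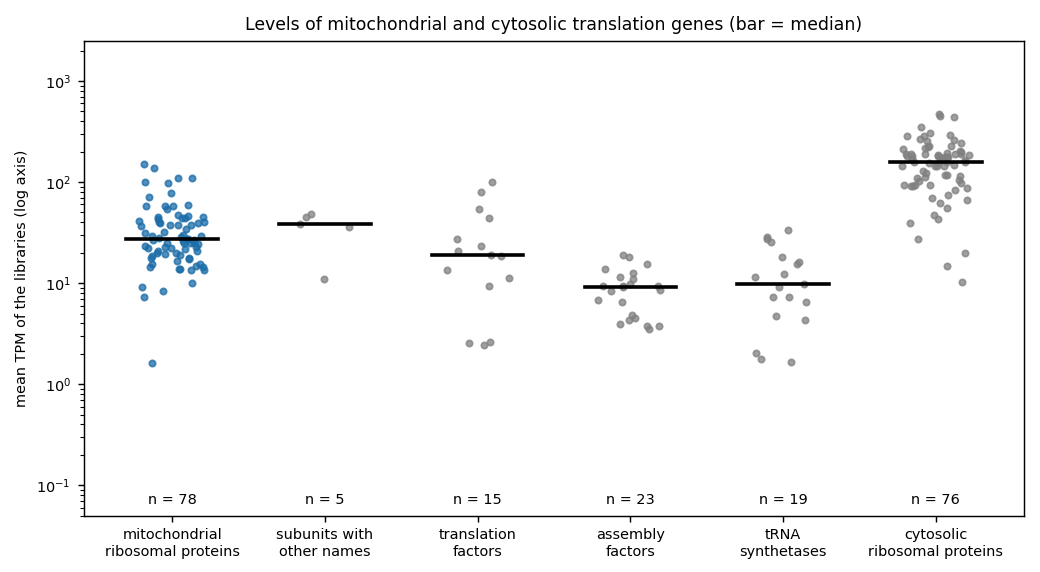
Mean TPM over the libraries on a log axis for the mitochondrial ribosomal protein genes and, to their right, other translation genes; each point is a gene and bars are medians. The bar of the 78 mitochondrial ribosomal protein genes, at 27.2 TPM, lies above those of the translation factors, assembly factors and tRNA synthetases and below that of the 76 cytosolic ribosomal protein genes, at 161 TPM.

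Library 1 and library 2 gave nearly the same levels. Over the 78 genes the median log2 ratio of TPM + 1, library 1 over library 2, was -0.01, against 0.01 for the 11940 genes with at least 10 counts in a library and a mean of 1 TPM. None of the 78 (0 genes) passed 2-fold, against 0.603% of those genes, and 77 lay within 1.2-fold. Spearman's rho between the libraries, a description across 78 genes that share library and annotation, was 0.991. Pooled expected counts of the set, scaled by library total, gave a ratio of 0.981, with an exact (Clopper-Pearson) 95% interval of 0.972 to 0.991 that covers counting error only. The ratio depends on this scaling, whose total includes the mitochondrial ribosomal RNAs, and no other scaling was applied to it. Summed TPM of the set was 2801 in library 1 and 2821 in library 2. The adipocyte markers given above were lower in library 1 for 4 of 4 genes, and their part in this ratio was not tested.

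For single genes the counting interval of the ratio lay above 1 in 6 of 78 genes, against 10.4% of all tested genes, and below 1 in 7, against 12.8%. The chi-square per degree of freedom between libraries was 1.71 over these genes and 5.73 over the 15440 genes with at least 20 counts. At a given relative difference this value grows with counts, and the sets were not matched for counts. Myh6 had 796996 and 772949 counts, against 2993 and 3089 for Mrpl12. The values therefore do not compare stability between the sets. Mrpl12 had a count ratio of 0.902 (0.857 to 0.949). Mrps10 had a count ratio of 1.22 (1.03 to 1.45) from 310 expected counts in library 1 and 236 in library 2. Of the 30 large-subunit genes with a bacterial counterpart, 9 were higher in library 1 and 21 in library 2, and of the 21 mitochondria-specific ones 14 were higher in library 1 and 7 in library 2. In the small subunit the counts were 5 and 10 with a counterpart and 5 and 5 without. Over all 11940 tested genes 51.2% were higher in library 1.

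**Figure D3:**
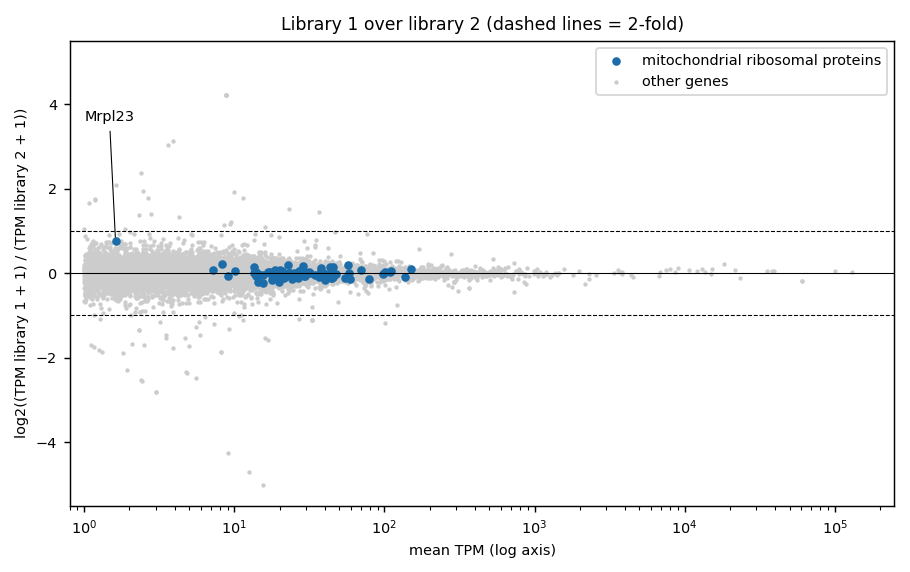
Log2 ratio of TPM + 1, library 1 over library 2, against mean TPM on a log axis, with mitochondrial ribosomal protein genes in blue and other genes with enough counts in grey. All 78 genes lie between the dashed 2-fold lines, and Mrpl23, at 0.76, is the farthest from 0.

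After Mrpl23, the ratios in TPM that were farthest from 0 belonged to Mrpl35, Mrps10, Mrps18b, Mrps35 and Mrpl47. In some of these the expected counts did not follow the TPM. Mrpl47, a protein of the exit site, had 13.2 and 15.35 TPM in library 1 and library 2 but 646 and 626 expected counts, and its deposited mean length was 1573 and 1407 bases. Mrpl35 had 14.1 and 16.7 TPM, 843 and 861 counts, and lengths of 1902 and 1752 bases, and its count ratio of 0.911 had an interval of 0.828 to 1.00. Mrps35, a mitochondria-specific small-subunit protein, had 61.55 and 53.3 TPM, 1544 and 1384 counts, and lengths of 857 and 932 bases. The deposited length is the mean over a gene's transcripts weighted by their abundance, so it moves with the shares given to each transcript.

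Length also separated levels from counts across the set. Spearman's rho between the mean length of a gene and its TPM was -0.53 across the 78 genes, and between length and expected count 0.25. TPM divides by length, so these values share it. Mrps30 shows both sides: it had the longest mean length, 3323 bases in each library, the lowest TPM after Mrpl23, and 794 and 708 expected counts.

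Mrpl23 was the single gene on which the deposited quantifications disagreed by more than 2-fold. The first quantification, the gene tables, listed it at 2.29 TPM in library 1 and 0.94 in library 2, from 54.99 and 29.99 expected counts, whereas the second listed 41.7 and 43.9 TPM. In the first, library 1 was thus the higher, with a count ratio of 1.71 (1.07 to 2.76), and in the second the lower. This was 1 of 78 genes lower in the first quantification past 2-fold, against 0.652% of the 11189 protein-coding genes with a mean of 1 TPM in either, and 0 were higher, against 0.322%. The tables also give bounds for each TPM, of a level not stated. The 0.94 TPM of Mrpl23 in library 2 lay below its own lower bound of 1.41, the only such case in the set.

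A processed pseudogene carries the same sequence. Mrpl23-ps1 lies on chromosome 2 (mm10, chr2:74591330-74591909, minus strand), whereas Mrpl23 lies on chromosome 7 (chr7:142532686-142540747, plus strand). Its 580 bases aligned to the Mrpl23 transcript over 540 bases with 0 mismatches, which covers all 438 coding bases. The first 41 coding bases are shown for both, with the start codon in capitals.
Mrpl23: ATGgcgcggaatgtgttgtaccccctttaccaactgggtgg
Mrpl23-ps1: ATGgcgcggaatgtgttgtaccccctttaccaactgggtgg

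The first quantification gave most counts to the copy. Mrpl23-ps1 was listed at 38.4 TPM in library 1 and 39.2 in library 2, from 611 and 587 expected counts, and the second quantification listed it at 0 in both. The sum of gene and copy was 40.7 and 40.1 TPM by the first quantification, against 41.7 and 43.9 by the second, and the copy held 96.0% of the first sum. Reads inside the shared stretch cannot be assigned by sequence, so the level of Mrpl23 is uncertain, and with it the lowest place in the set and both ends of the order at the exit site.

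**Figure D4:**
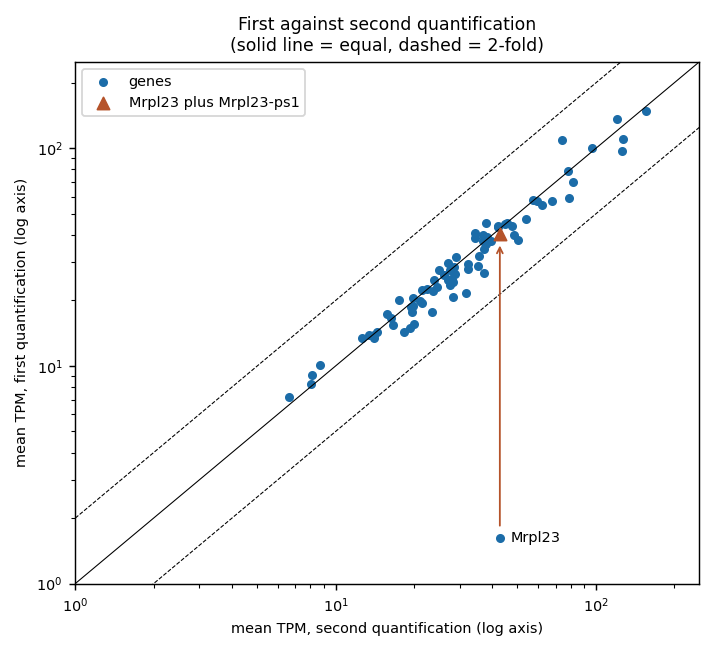
Mean TPM of each gene in the first quantification against the second, both on log axes, with a solid line at equality and dashed lines at 2-fold. Mrpl23 alone lies beyond 2-fold, and the triangle shows that adding Mrpl23-ps1 brings it to 40.4 TPM, close to equality.

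Other copies took fewer reads. A search of pseudogene transcripts at 90% identity over at least 200 bases and 50% of the copy found 46 copies of 25 of the genes, 9 of them copies of Mrps36 and 5 of Mrpl30. In the first quantification 30 had no count and 5 reached 1 TPM in both libraries. Copies of other genes were not searched for, so no share over all genes can be set beside these counts. Gm5776, a copy of the small-subunit gene Mrps33, differs from it in 1 of 321 aligned bases. The substitution is G171A, the base of Mrps33 first, with positions counted from the first coding base, and it stands in capitals in these 41 bases.
Mrps33: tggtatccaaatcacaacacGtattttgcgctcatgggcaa
Gm5776: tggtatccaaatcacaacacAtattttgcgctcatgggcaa

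Gm5776 was listed at 7.85 and 5.80 TPM in library 1 and library 2 by the first quantification and at 1.99 and 3.58 by the second. Mrps33 itself had 38.5 and 37.1 TPM in the first and 48.2 and 52.5 in the second. Mrpl48-ps, with 12 mismatches to Mrpl48 in 636 bases, had 5.75 and 5.4 TPM, beside 24.2 and 21.03 for Mrpl48. Gm13552, a copy of Mrps18b with 1 mismatch in 417 bases, was listed at 0. Gm12244, a copy of Mrps16, had 2.06 TPM in library 1 and 0.83 in library 2.

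Apart from Mrpl23 the quantifications lay close, with 77 of 78 genes within 1.5-fold. Spearman's rho between them over all 78 genes, Mrpl23 included, was 0.929. Only 28 of the 78 second values lay between the first quantification's deposited bounds in both libraries. Of the 10 genes that differed most, Mrps23 alone was higher in the first, with 109.9 and 109 TPM there and 71.6 and 76.7 in the second. Its expected counts were lower in the first, at 2811 and 2593, than in the second, at 3133 and 2813. Mrps12, at the decoding centre, had 20.6 and 22.5 TPM in the first and 27.2 and 36.5 in the second. Mrps7, also on the tRNA path, had 27.3 and 26.2 against 36.9 and 37.3. Mrpl3, which lies near the peptidyl transferase centre, had 56.3 and 62.1 against 76.1 and 82.2, and Mrpl33 had 97.4 and 98.1 against 126 and 125.3. The remaining genes of that group, Mrpl27, Mrps33, Mrpl22 and Mrpl19, were lower in the first by 0.36 to 0.44 on the log2 scale.

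Some of these genes were led by a transcript that is not annotated as protein coding, meaning that it held more TPM than any other transcript of the gene. The 78 genes have 343 annotated transcripts, of which 170 are protein coding, 88 retain an intron, 61 are processed transcripts, a class without an annotated open reading frame, and 24 are annotated as targets of nonsense-mediated decay. A leading transcript of another type than protein coding in both libraries was found for 16 of 78 genes (20.5%) in the first quantification, against 5.18% of the 10999 protein-coding genes with a mean of 1 TPM. In the second it was found for 19 (24.4%), against 5.77%, and in both quantifications for 15 (19.2%), against 3.76%. Types follow the GENCODE annotation, and protein was not measured. Protein-coding transcripts held 78.4% ± 0.470 of the set's TPM by the first quantification and 73.1% ± 0.224 by the second. Of the set's counts they held 84.0% ± 0.0662 by the first and 82.9% ± 0.147 by the second.

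Of the 16 leading transcripts, 6 were annotated as nonsense-mediated decay targets, 6 as processed transcripts and 4 as retaining an intron. The large subunit gave 9 of them and the small subunit 7. Mrps26-201, which retains an intron, held 97.0% ± 0.169 of Mrps26 TPM, with 23.4 TPM in library 1 and 24.9 in library 2, against 0.70 and 0.81 for the coding Mrps26-202. Mrps16-202, a processed transcript, held 96.3% ± 0.649 with 22.9 and 24.9 TPM, and the coding Mrps16-201 had 0.99 and 0.83. Mrps14-201, a nonsense-mediated decay target, held 94.8% ± 1.79 with 29.98 and 30.8 TPM. In 8 of the 16 genes transcripts of other types held over 90% of TPM. These shares are of TPM, which divides by length, and a short lead can hold a smaller share of the counts. Mrps14-201 held 81.1% of its gene's counts in the first quantification. Mrpl19-203, a processed transcript of 419 bases, held 54.3% of Mrpl19 TPM but 11.8% of its counts. A lead in TPM is therefore not always a lead in reads.

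The leading transcripts of these genes were mostly contained in the exons of coding ones, but not the reverse. In 15 of the 16 genes the leading transcript was shorter than the leading coding transcript, with a median of 703.5 bases against 3006. A median of 89.8% of its bases lay in exons of coding transcripts, and in 4 genes all of them did. In the other direction, the lead held a median of 20.5% of the bases of the leading coding transcript, and at most 77.6%, in Mrps11. Mrpl3-204, a nonsense-mediated decay target with 1394 bases, all inside coding exons, had 34.0 and 32.9 TPM, and the coding Mrpl3-201 with 3972 bases had 3.52 and 3.86. Mrpl51-202, a processed transcript, had 63.4 and 62.9 TPM and 364 bases outside coding exons, and Mrpl51-201 had 6.55 and 6.70. Mrps24-201, which retains an intron, had 35.5 and 36.9 TPM, and 68 of its 700 bases lay outside coding exons.

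**Figure D5:**
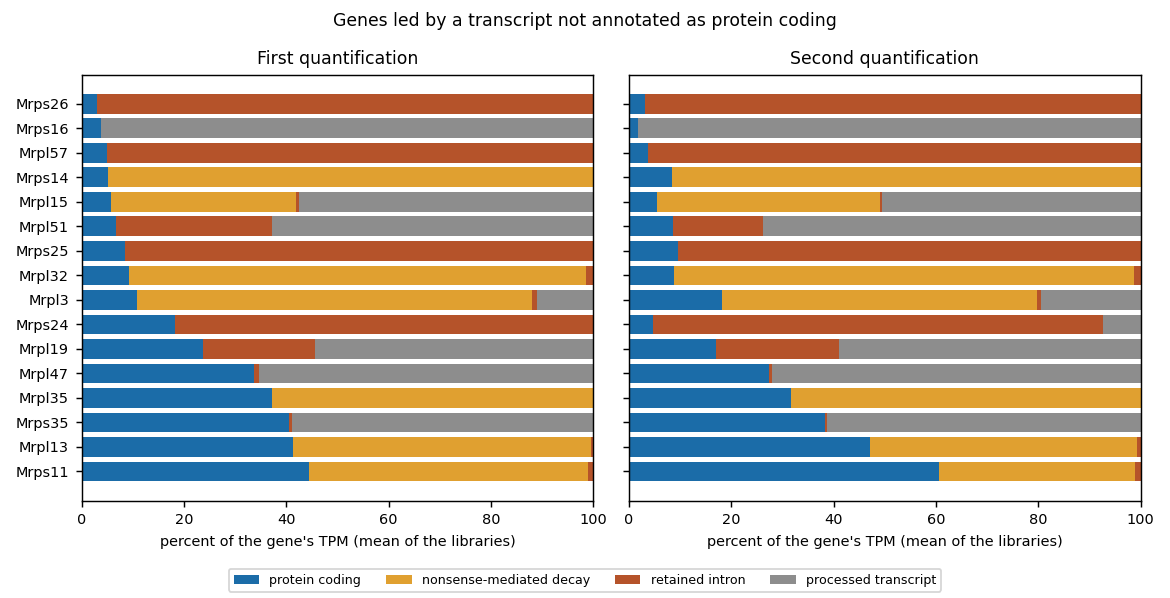
Share of each gene's TPM (percent, mean of the libraries) by annotated transcript type for the 16 genes led by a transcript that is not protein coding in the first quantification (left), with the same genes in the second (right). On the left, coding transcripts hold under 5% in Mrps26, Mrps16 and Mrpl57 and the most in Mrps11, the only gene of the 16 led by a coding transcript in the second quantification.

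The same transcript led in both libraries and both quantifications for 60 of 78 genes. Among the other leading transcripts of the first quantification, Mrpl15-202 had 26.0 and 24.7 TPM in library 1 and library 2, and Mrpl13-202 had 19.9 and 20.4. Mrps25-201, which retains an intron, had 18.5 and 16.8 TPM, against 2.18 and 2.42 for the coding Mrps25-203. Mrpl33, Mrps12, Mrps5 and Mrps7 were led by a transcript of another type in the second quantification alone. With protein-coding transcripts only, 4 genes fell below 1 TPM in a library: Mrps26, Mrps16, Mrpl32 and Mrpl23.

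The genes were spread over 17 chromosomes, with 11 on chromosome 11, 8 on chromosome 17 and 0 on chromosome X. A protein-coding gene on the opposite strand started within 1000 bases of 33 of the 78 (42.3%), against 16.6% of protein-coding genes with a mean of 1 TPM and 19.7% of cytosolic ribosomal protein genes. These formed 32 distinct pairs. In the 31 pairs whose partner is outside the set, the mitochondrial ribosomal gene had the higher mean TPM in 25, and 9 partners were under 1 TPM. Of the 78 genes, 76 lay above the median of detected nuclear protein-coding genes, paired or not. Only 48.9% of all protein-coding genes reached 1 TPM in both libraries. No such count was made for other pairs, so the order within pairs cannot be read as a trait of them. Mrpl46 and Mrps11, both of the set, formed the remaining pair on chromosome 7 and overlapped by 413 bases, with 18.6 ± 0.721 and 13.9 ± 0.41 TPM. Mrpl30, whose promoter is printed above, starts 66 bases from Mitd1, which had 1.04 ± 0.382 TPM.

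Genes that overlap others need care, since the kit was directional but the use of strand in counting is not given in the sources used here. Another gene overlapped 42 of the 78, on the same strand in 13. The share over all genes was not computed, so these counts do not set the genes apart from others. In 4 cases the overlapping gene had the higher mean: Ndufs6, a subunit of respiratory complex I, at 403 ± 6.13 TPM over 30 bases of Mrpl36, Ndufb5, of the same complex, at 279.9 ± 7.83 over 616 bases of Mrpl47, Tcp1, a cytosolic chaperonin subunit, at 62.9 ± 3.15 over 645 bases of Mrpl18, and Mrpl46 over Mrps11. All 4 lay on the opposite strand. On the same strand, Urgcp overlapped Mrps24 by 2264 bases with 18.2 and 18.5 TPM, Nme3 overlapped Mrps34 by 1003 bases with 9.52 and 13.2, and Slc5a3 overlapped Mrps6 with 1.59 and 1.78. Values of these genes are uncertain to that extent.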

How the data were processed

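Total RNA from 300 ng per library was sequenced with a directional kit after ribosomal RNA reduction and ERCC spike-ins were added, per the labels. The genome build was mm10 and the annotation GENCODE M21, per the deposited readme; the aligner is not given in the sources used here, nor is any treatment of CAST alleles. The first quantification is the deposited gene and transcript tables, which hold expected counts (shared reads split by an estimator), TPM and FPKM, per the file headers. The second quantification is a deposited transcript table of estimated counts and TPM, per the file headers, summed per gene here. The deposited tables' other columns, per the file headers, include a lower and an upper bound of TPM, whose level is not stated, and the percent of a gene's abundance per transcript, recomputed here from TPM; 0 columns belonged to other samples.

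The genes and lists were chosen with earlier results of these data known. Named genes were the 5 highest and 5 lowest, the highest and lowest of each role group and list, those past 2-fold, the 10 farthest apart between quantifications, the 5 farthest apart between libraries with at least 100 counts, 10 led by transcripts that are not protein coding, the Mrps18 paralogs, and, of overlapping neighbours, those above the gene or on its strand at 1 TPM. Copies, further transcripts, head-to-head partners, marker genes and genes named to complete a count of 5 or fewer were chosen after their values were seen. A transcript that the rule takes is not reported here.

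A gene was detected at 1 TPM in both libraries. Log2 ratios used a pseudocount of 1, which understates changes of low genes, and needed 10 rounded expected counts in a library and a mean of 1 TPM. Count ratios carry exact 95% intervals, and intervals cover counting error only. No p-value was computed. Subunits followed the structural nomenclature. Copies were found with BLAST+ 2.17.0. Alternatives used edgeR 4.0.16 (TMM), DESeq2 1.42.0 (size factors), FPKM, a pseudocount of 0.1, other filters and other memberships. The ratio step was tested on simulated data. Tables and plots were made with pandas 2.3.3, numpy 2.4.6, scipy 1.17.1 and matplotlib 3.10.9 under Python 3.11.15, and R 4.3.3 ran the count scaling.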

Additional observations from a re-analysis of the deposited data

How the results depend on the processing

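Of the 77 genes detected at 1 TPM, 77 passed at 5 TPM, 78 genes were detected in the second quantification and 74 with protein-coding transcripts only. The median of 27.2 TPM was 28.7 in the second quantification, 22.8 in FPKM and 20.6 with protein-coding transcripts only. The share of nuclear protein-coding TPM, 0.859%, was 0.782% with protein-coding transcripts only, 0.914% with the 5 subunits of other names and 0.838% without Mrps36. The large over small median ratio, 1.07, was 1.05 in the second quantification, 1.18 with protein-coding transcripts only and 1.01 with the subunits of other names. The median log2 ratio between libraries, -0.01, was -0.0474 in the second quantification, -0.0229 in FPKM and -0.0245 with TMM scaling. The median over all 11940 tested genes moved as well, from 0.0052 to -0.0103, -0.0085 and -0.0034 in the same settings. With a pseudocount of 0.1, 1 gene (Mrpl23) passed 2-fold between libraries, against 1.27% of all tested genes. The cytosolic ratio and the 1 gene past 2-fold between quantifications moved by less than the spread between libraries or not at all in the alternatives run. The cause of these shifts was not tested.

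With 1 library left out, detected genes ranged from 77 to 78, the median from 26.9 to 27.5 TPM, the share from 0.856% to 0.862%, the large over small ratio from 1.07 to 1.08, the cytosolic ratio from 0.167 to 0.171 and genes past 2-fold between quantifications from 1 to 1. No paired analysis was possible because the data hold a single group. Each spread rests on 2 libraries, and the shared donor identifier leaves their source unknown. At this depth a count of 0 allows up to 3 counts.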

Other observations

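The mitochondrial aminoacyl-tRNA synthetases, which charge the tRNAs used by the mitochondrial ribosome, were all detected at 1 TPM in both libraries (19 of 19 genes). Their median was 9.89 ± 0.283 TPM (SD, n = 2). In the first quantification Kars, which serves both the cytosol and mitochondria, was highest with 33.8 TPM in library 1 and 33.4 in library 2. In the second it had 42.6 and 33.5 and stood below Lars2, the mitochondrial leucyl enzyme, which had 26.7 and 24.9 TPM in the first quantification and 70.7 and 67.2 in the second. Mars2, the mitochondrial methionyl enzyme, was lowest with 1.70 and 1.60 in the first, and its libraries overlapped those of Wars2 in the second.

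The ribosomal RNAs of the mitochondrial ribosome, measured after the reduction of ribosomal RNA, remained abundant. mt-Rnr2, of the large subunit, was listed at 130655 TPM in library 1 and 128629 in library 2, and mt-Rnr1, of the small subunit, at 101807 and 97745. The second quantification listed 132416 and 132456 for mt-Rnr2 and 87338 and 86994 for mt-Rnr1. These values follow the reduction step and are not levels in the tissue.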
